A study of Mus musculus with 6 samples.

Results

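To examine the oligodendrocyte lineage in the irradiated cortex, 10 genes of precursors, committed precursors and newly formed oligodendrocytes were taken by name from the 51826 genes of the deposited tables. They were Pdgfra and Cspg4 (precursors), Olig1, Olig2 and Sox10 (transcription factors of the lineage), Gpr17, Bmp4 and Neu4 (committed precursors), and Enpp6 and Bcas1 (newly formed oligodendrocytes). Bulk polyA RNA was sequenced from 3 cortical samples of Lgmn+/+-IR mice (wild-type) and 3 of Lgmn-/--IR mice (knockout of Lgmn, which encodes AEP). All mice were young adult BALB/c males that received whole-brain X-ray at a single dose of 10 Gy, and the cortex was taken on day 3. The Lgmn-/- mice descend from 1 embryonic stem cell clone with a floxed Lgmn allele. Its offspring were crossed to Flp mice and then to Cre mice, and the Lgmn-/- mice are Lgmn flox/flox: Cre+. The promoter that drives Cre is not given in the sources used here. Both genotypes were irradiated, and non-irradiated mice were not analysed here.

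Oligodendrocyte precursors are the main dividing glia of the adult cortex and respond to PDGF through the receptor that Pdgfra encodes. As they commit, they pass through a stage that expresses Gpr17 and Bmp4, then a short newly formed stage marked by Enpp6, before they make myelin. Olig2 and Sox10 are kept through the whole lineage, and the lineage is known to be sensitive to radiation.

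Enpp6, which encodes a choline-specific phosphodiesterase and marks newly formed oligodendrocytes, was the only one of the 10 genes that passed the test. It fell to 0.502-fold in Lgmn-/--IR mice. The call held in 14 of 19 alternative settings. It was lost without Lgmn+/+-IR replicate 2 or replicate 3, and without the 2 libraries highest in striatal genes. It was lost too with the replicate number as a block and with the authors' FPKM taken without a filter. Neu4, which encodes a sialidase, was at 0.527-fold and did not pass. The 8 other genes, among them the precursor receptors Pdgfra and Cspg4, lay between 0.830-fold and 1.32-fold with libraries of both genotypes overlapping.

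The sequences before the starts of Enpp6 and Neu4 are shown because these are the 2 genes whose libraries did not overlap between genotypes. RefSeq (GRCm38.p6) gave a promoter for 6 of the 10 genes. Olig1, Sox10, Gpr17 and Bcas1 were not matched. The Enpp6 sequence is chr8:46986637-46986886 and the Neu4 sequence is chr1:94020243-94020450, both on the plus strand and both ending at the base before the first start annotated in GENCODE M21. Capitals mark the letters searched on both strands, the SOX motif (ACAAAG or ACAATG) and the E-box (CANNTG), which bHLH factors such as Olig1 and Olig2 bind.
Enpp6: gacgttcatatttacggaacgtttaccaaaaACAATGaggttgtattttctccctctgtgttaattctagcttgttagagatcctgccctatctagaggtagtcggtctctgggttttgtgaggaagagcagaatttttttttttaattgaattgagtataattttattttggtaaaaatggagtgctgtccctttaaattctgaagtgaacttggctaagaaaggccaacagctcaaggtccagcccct
Neu4: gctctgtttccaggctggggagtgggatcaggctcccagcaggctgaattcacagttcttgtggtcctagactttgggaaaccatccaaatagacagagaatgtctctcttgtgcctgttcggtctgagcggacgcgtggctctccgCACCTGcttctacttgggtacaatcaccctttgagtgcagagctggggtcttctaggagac

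In the 250 bases before the RefSeq start, Enpp6 held 1 SOX motif and no E-box, and Neu4 held 1 E-box and no SOX motif. Among the 6 promoters, 2 held a SOX motif and 3 held an E-box. Of all 32851 promoters of this length, 25.2% held a SOX motif and 66.2% an E-box. The matches describe letters and are not evidence of binding.

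Total counts ranged from 41874462 to 46829441 per library, and the 10 genes had between 112 and 6048 counts in any library. Lgmn, the targeted gene, had 5558, 5528 and 5775 counts in wild-type and 3703, 3269 and 4109 in knockout cortex, so the knockout libraries were lower but kept reads on the gene (log2 fold change −0.64, edgeR adjusted p = 0.0315). The call on Lgmn was lost without any one Lgmn+/+-IR library or without Lgmn-/--IR replicate 1 (edgeR adjusted p 0.0949 to 0.131). The paper checked its Lgmn-/- mice by tail DNA and reported the loss of an AEP band on immunoblots of their cortex. The counts here are of RNA over the whole gene, and which exons kept reads was not tested. CPM below are counts scaled to the library size with the TMM method, given as mean ± SD over 3 libraries. FPKM are the authors' values scaled also for transcript length, and only these were used to compare the levels of different genes. Ratios of counts of 2 genes, where given, are compared between libraries and not read as relative levels. Differences were tested in edgeR's quasi-likelihood test over 18345 genes with Benjamini-Hochberg adjustment, at an adjusted p value under 0.05. A DEG also has an absolute log2 fold change over 1. The series names 3 replicates of each genotype, taken here as separate mice, and the p values measure the spread between their libraries. In bulk tissue, fewer cells of a type and less RNA per cell cannot be told apart.

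Of the 10 genes, 1 passed the test (Enpp6, lower), against 3.33% of all genes tested (1.65% higher and 1.68% lower). None was a DEG, against 2.06% of all genes tested (0.959% higher and 1.1% lower), and with DESeq2 and with limma-voom none was either. At an unadjusted p value under 0.05 there were 2 of the 10 (Enpp6 and Neu4), against 18.6% of all genes tested. The libraries of the genotypes did not overlap for 2 of the 10, both lower, against 25.7% of all genes tested (12.4% higher and 13.3% lower), so this count lies near the background. The median log2 fold change was −0.15 in the 10 genes and −0.01 in all genes tested. All 10 passed the filter on low counts.

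**Figure D1:**
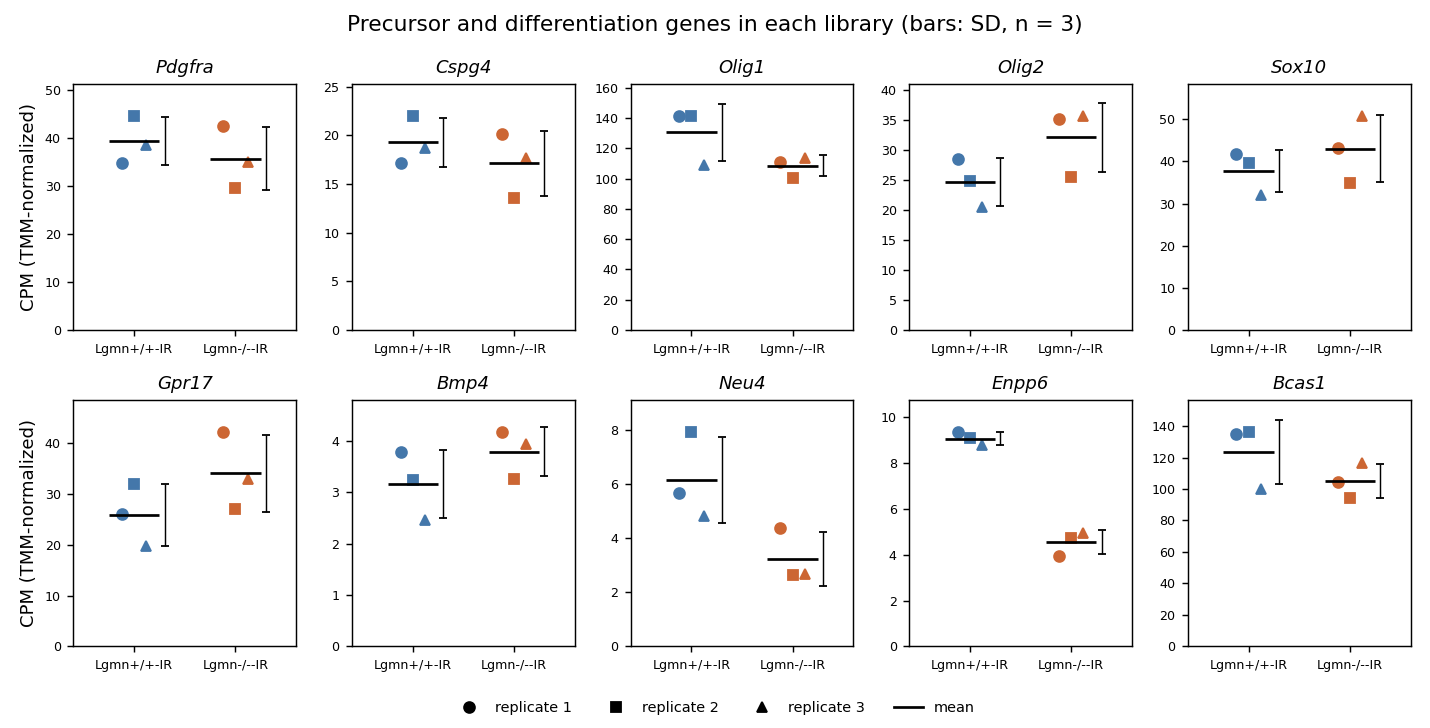
TMM-normalized CPM of each of the 10 genes by genotype. Points are single libraries with the replicate number as shape, the horizontal line is the mean and the error bar the SD (n = 3), and the axes start at 0. The Lgmn-/--IR libraries of Enpp6 sit between 3.96 and 4.97 CPM, all below the Lgmn+/+-IR libraries, while the groups overlap for Pdgfra, Cspg4, Sox10 and the others except Neu4.

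Ordered by FPKM, which allows levels of different genes to be compared, Olig1 was the highest (mean over the 6 libraries 48.7, range 42.3 to 59.0) and Neu4 the lowest (mean 0.986, range 0.502 to 1.68). Olig1 and Bcas1 (mean 45.4, range 38.2 to 55.1) had overlapping ranges and lay apart from the rest. Next came Sox10 (mean 13.1) and Olig2 (mean 10.2), whose ranges overlapped, then Pdgfra (mean 5.39) and Gpr17 (mean 5.05), which overlapped as well. Cspg4 (mean 2.49), Enpp6 (mean 2.12), Bmp4 (mean 1.51) and Neu4 closed the order, each overlapping with its neighbor. All 10 were thus detected in every library. As a check of the tissue, 8 neuronal genes summed to between 7546 and 9525 CPM per library.

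The precursor receptors showed no difference that passed the test. Pdgfra, the receptor through which PDGF-A drives proliferation and survival of precursors, is found at positions 75152292 to 75198215 of chromosome 5 (GRCm38). Its levels were 34.8, 44.7 and 38.5 CPM in wild-type and 42.6, 29.7 and 35.0 in knockout cortex, and the groups overlapped. Its log2 fold change was −0.14 (95% interval −0.51 to 0.24, edgeR adjusted p = 0.692). Cspg4 (chromosome 9, 56865033 to 56899870) encodes the NG2 proteoglycan of precursors, which pericytes also make. It had 17.1, 22.0 and 18.7 CPM in wild-type and 20.1, 13.5 and 17.7 in knockout cortex. The log2 fold change was −0.17 (95% interval −0.57 to 0.23, edgeR adjusted p = 0.648). Its sign depended on the unit. From the FPKM the difference was 0.08 on the log2(FPKM + 1) scale, and the means were 2.38 ± 0.295 FPKM in wild-type and 2.59 ± 0.563 in knockout cortex. The CPM of Cspg4 divided by its FPKM, a length in kilobases, was 7.77, 8.08 and 8.42 in wild-type and 6.33, 5.36 and 8.56 in knockout cortex. Lgmn-/--IR replicates 1 and 2 had the lowest of these values, and the annotation has 4 transcripts of the gene.

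Across the 6 libraries Pdgfra and Cspg4 had the most similar pattern of any pair of the 10 genes (Pearson r 0.98, Spearman rho 1.00, log2 CPM). Olig1 with Bcas1 (r 0.97, rho 0.94) and Olig2 with Bmp4 (r 0.95, rho 0.94) followed. These values describe 6 libraries that share tissue, depth and normalization among genes. In both precursor receptors the highest library was Lgmn+/+-IR replicate 2 and the lowest Lgmn-/--IR replicate 2, with Lgmn-/--IR replicate 1 second highest.

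The 3 transcription factors did not pass the test, and the signs of their fold changes differed. Olig1, a bHLH factor that acts in oligodendrocyte maturation and remyelination, had 142, 141 and 109 CPM in wild-type and 111, 101 and 114 in knockout cortex. The third Lgmn+/+-IR library lay among the Lgmn-/--IR libraries. The log2 fold change was −0.27 (95% interval −0.56 to 0.02, edgeR adjusted p = 0.305). Olig2, the related bHLH factor that specifies the lineage, had 28.5, 24.9 and 20.5 CPM in wild-type and 35.1, 25.5 and 35.8 in knockout cortex. Lgmn-/--IR replicates 1 and 3 were the highest and replicate 2 lay within the range of Lgmn+/+-IR. The log2 fold change was 0.38 (95% interval −0.03 to 0.79, edgeR adjusted p = 0.299). Sox10, an HMG-box factor needed for myelin gene expression, had 41.6, 39.6 and 32.1 CPM in wild-type and 43.2, 34.9 and 50.8 in knockout cortex, with overlapping groups. Its log2 fold change was 0.19 (95% interval −0.20 to 0.57, edgeR adjusted p = 0.592). Sox10 lies on chromosome 15 from 79154908 to 79165240.

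Olig2 (chromosome 16, 91225457 to 91228677) and Olig1 (chromosome 16, 91269772 to 91271933) are neighbors on the plus strand, 41.1 kb apart. As their fold changes had opposite signs, the ratio of their counts was computed within each library, a measure chosen after the values were seen and given without a test. There were 4.97, 5.67 and 5.31 counts of Olig1 per count of Olig2 in wild-type, and 3.16, 3.95 and 3.18 in knockout cortex. The mean was 5.32 ± 0.350 and 3.43 ± 0.451 (SD, n = 3 each), and no library of one genotype reached the range of the other. The same held for the ratio of the FPKM, with 5.602, 6.39 and 5.99 against 3.56, 4.45 and 3.59. Among the 45 pairs of the 10 genes, 28 had ratios that did not overlap between genotypes (62.2%), so this is not particular to the Olig pair. The 45 pairs reuse the same 10 genes. The share over pairs of all genes tested was not computed, so 62.2% has no background beside it.

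**Figure D2:**
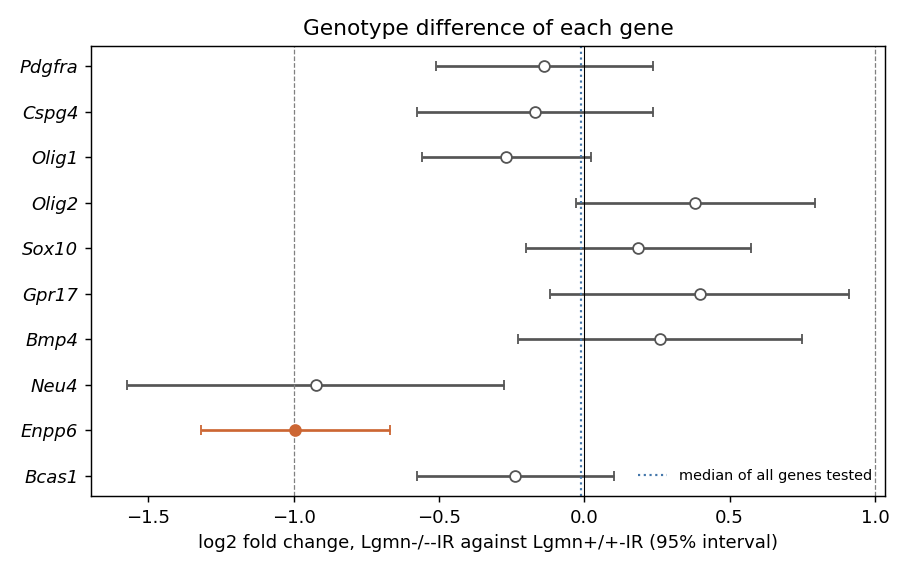
Log2 fold change of each of the 10 genes (x axis, Lgmn-/--IR against Lgmn+/+-IR) with its 95% interval from edgeR's quasi-likelihood test. The filled point passed an adjusted p value of 0.05, dashed lines mark an absolute log2 fold change of 1, and the dotted line is the median of all genes tested (−0.01). Enpp6 (−0.99) and Neu4 (−0.92) have intervals below 0, and the other 8 intervals include 0.

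Among the genes of committed precursors, Gpr17 encodes a G protein-coupled receptor that is switched on at commitment and off again before myelination. It had 25.9, 31.8 and 19.7 CPM in wild-type and 42.1, 27.0 and 32.97 in knockout cortex. Lgmn-/--IR replicate 1 was the highest, and the groups overlapped (log2 fold change 0.40, 95% interval −0.12 to 0.91, edgeR adjusted p = 0.382). The exons of Gpr17 overlap those of Lims2 on the opposite strand by 188 bases. The sources used here do not say whether reads were counted by strand. Whether reads from the shared bases of these 2 genes could be told apart is thus not known. Lims2 had at most 562 counts per library, against 897 to 1868 for Gpr17.

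Bmp4 encodes a bone morphogenetic protein that committed precursors secrete and that is known to hold back their differentiation. It lies on chromosome 14 from 46383520 to 46390669 and had low counts, 161, 139 and 112 in wild-type and 185, 151 and 173 in knockout cortex. The libraries overlapped (3.16 ± 0.660 and 3.79 ± 0.475 CPM, log2 fold change 0.26, 95% interval −0.23 to 0.75, edgeR adjusted p = 0.549).

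Neu4 (ENSMUSG00000034000, chromosome 1, 94020451 to 94028334) encodes a sialidase that removes sialic acid from glycoproteins and glycolipids. It had 242, 339 and 220 counts in wild-type and 195, 122 and 118 in knockout cortex, or 5.67, 7.92 and 4.84 CPM and 4.39, 2.63 and 2.69 CPM. The ranges of the genotypes did not overlap, and Lgmn-/--IR replicate 1 came close to the lowest of them. The mean was 6.14 ± 1.59 CPM in wild-type and 3.24 ± 1.00 in knockout cortex, a log2 fold change of −0.92 (standard error 0.28, 95% interval −1.57 to −0.28). With an edgeR adjusted p of 0.138 the difference did not pass the test, whereas DESeq2 gave an adjusted p of 0.0362. Over the 19 alternatives the edgeR, limma and DESeq2 adjusted p lay between 0.0362 and 0.362, and DESeq2 was the only one under 0.05. The FPKM were 1.32, 1.68 and 1.02 in wild-type and 0.855, 0.542 and 0.502 in knockout cortex.

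Enpp6 (ENSMUSG00000038173, chromosome 8, 46986887 to 47096762) had 399, 389 and 400 counts in wild-type and 176, 220 and 218 in knockout cortex. These are 9.35, 9.08 and 8.80 CPM in wild-type and 3.96, 4.74 and 4.97 CPM in knockout cortex. The 3 Lgmn+/+-IR libraries lay close together, and each Lgmn-/--IR library was well below them. The mean fell from 9.08 ± 0.278 to 4.56 ± 0.527 CPM (log2 fold change −0.99, standard error 0.14, 95% interval −1.32 to −0.67, edgeR adjusted p = 0.0124), just short of the threshold on the fold. The FPKM fell too, from 3.03, 3.03 and 2.85 to 0.871, 1.35 and 1.57. With Lgmn+/+-IR replicate 2 or replicate 3 left out, the edgeR adjusted p rose to 0.0685 and 0.0520, while the log2 fold change stayed at −0.99 and −1.02. The annotation has 6 transcripts of Enpp6. Its CPM divided by its FPKM was 3.09, 3.00 and 3.08 kb in wild-type and 4.55, 3.52 and 3.15 kb in knockout cortex, with Lgmn-/--IR replicate 1 the highest.

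Bcas1, the other gene of newly formed oligodendrocytes, is also kept in myelinating cells. It lies on chromosome 2 from 170346991 to 170427845 and had 135, 136 and 100.2 CPM in wild-type and 104, 94.4 and 116 in knockout cortex. As with Olig1, the third Lgmn+/+-IR library was among the Lgmn-/--IR libraries. Its log2 fold change was −0.24 (95% interval −0.58 to 0.10, edgeR adjusted p = 0.430). Whether Enpp6 and Bcas1 differ from each other in their response was not tested.

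To set the genes against the lineage as a whole, counts were expressed per 100 counts of Sox10, which is expressed at every stage. This measure was chosen after the values were seen and is given without a test. Enpp6 had 22.5, 22.9 and 27.4 counts per 100 of Sox10 in wild-type and 9.16, 13.6 and 9.77 in knockout cortex. Neu4 had 13.6, 19.99 and 15.1 in wild-type and 10.2, 7.53 and 5.29 in knockout cortex. Olig1 (340, 357 and 339 against 257, 288 and 224) and Bcas1 (324, 343 and 312 against 241, 270 and 229) were also below the Lgmn+/+-IR range in each Lgmn-/--IR library on this scale. Olig2 was above it (68.4, 62.9 and 63.9 against 81.3, 73.0 and 70.3). Pdgfra, Cspg4, Gpr17 and Bmp4 overlapped. Of the 9 genes, 4 were thus lower without overlap and 1 was higher. Over all other genes tested, 14.7% did not overlap on the same scale, 11.4% lower and 3.28% higher. Sox10 itself was at 1.14-fold in Lgmn-/--IR, a difference that did not pass the test and that enters each of these ratios.

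**Figure D3:**
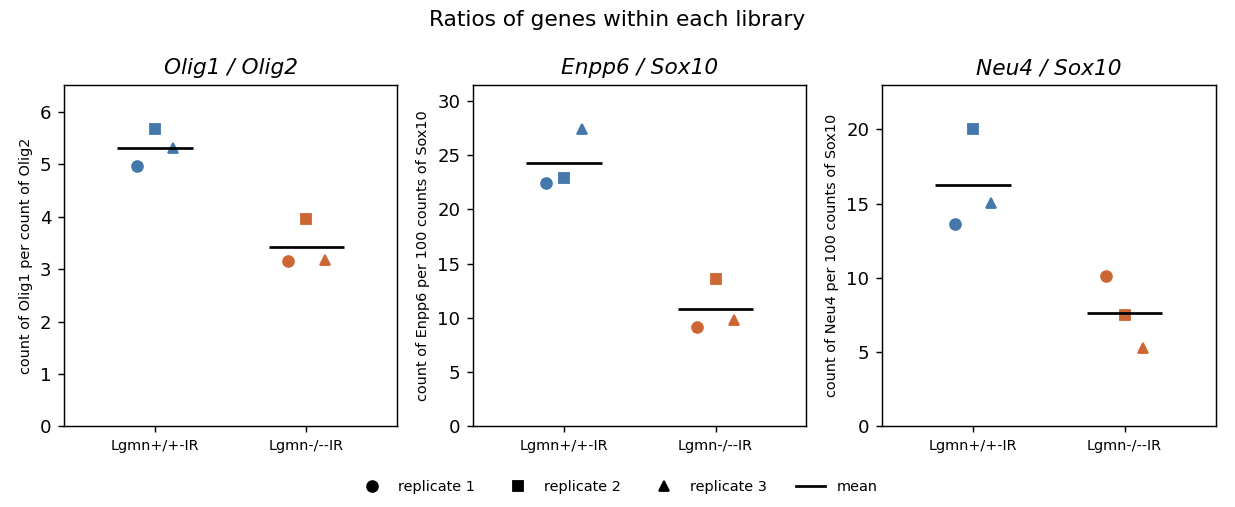
Counts of Olig1 per count of Olig2 (left), and of Enpp6 (middle) and Neu4 (right) per 100 counts of Sox10, in each library. Points are single libraries, the line is the mean of 3, and the axes start at 0. In each panel the 3 Lgmn-/--IR libraries lie below the 3 Lgmn+/+-IR libraries, as at 9.16 to 13.6 against 22.5 to 27.4 for Enpp6.

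Other genes of the lineage and of the signals that act on it were taken from lists of 88 genes, all of which were tested. Of these, 3 passed the test, 2 higher and 1 lower, a share near the 3.33% of all genes tested. The counts at an unadjusted p value under 0.05 given for each list stand against 18.6% of all genes tested. DESeq2 called 8 of the 88. Over all genes DESeq2 called 1298 of 21756, a larger share than edgeR's test, and limma-voom called 594 of 18345. The DESeq2 and limma-voom counts given for each list stand against these. In edgeR's test, leaving out Lgmn-/--IR replicate 2 left 2 calls among the 88 and any other library 1. Of 12 other genes of committed and newly formed cells, Elovl7, a fatty acid elongase gene, fell from 13.1 ± 0.712 to 8.21 ± 0.758 CPM (log2 fold change −0.68, edgeR adjusted p = 0.0321), a call that was lost with any of the 6 libraries left out (adjusted p 0.0677 to 0.145). Tmem163, which encodes a zinc transporter, rose from 12.2 ± 1.17 to 20.1 ± 1.57 CPM (log2 fold change 0.72, edgeR adjusted p = 0.0237), a call that held only without Lgmn-/--IR replicate 2 when libraries were left out (adjusted p otherwise 0.0618 to 0.113). The median of this list was −0.21. Of the 12 genes, 6 had an unadjusted p value under 0.05, with both directions among them, and DESeq2 and limma-voom called 2 each. The log2 fold change was above 0 in 5 of the 12 and below 0 in 7. The summed CPM of the list, which was not tested, was 337 to 365 in wild-type and 394 to 429 in knockout cortex.

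None of the 16 other precursor genes passed edgeR's test (2 at an unadjusted p value under 0.05, 1 with DESeq2 and 0 with limma-voom), and their median log2 fold change was 0.13. The smallest p belonged to Megf11, a gene of the EGF-like repeat family, with 26.5, 24.5 and 18.2 CPM in wild-type and 14.99, 11.01 and 13.4 in knockout cortex (edgeR adjusted p = 0.0627). None of the 18 regulators of differentiation passed edgeR's test (3 at an unadjusted p value under 0.05, 1 with DESeq2 and 0 with limma-voom), and their median was 0.00. The gene nearest to the threshold was Nkx6-2, a homeobox gene of myelinating cells, with 17.7 ± 1.57 and 12.2 ± 0.917 CPM (edgeR adjusted p = 0.0643).

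Of the 12 genes of PDGF and FGF signalling none passed edgeR's test (4 at an unadjusted p value under 0.05, 1 with DESeq2 and 0 with limma-voom), with a median of 0.17. Etv5, a transcription factor gene that FGF signals induce, was nearest, with 114 ± 17.9 and 166 ± 16.0 CPM (log2 fold change 0.55, edgeR adjusted p = 0.0886). Of the 19 genes of BMP signalling, the pathway of Bmp4, none passed edgeR's test (3 at an unadjusted p value under 0.05, 1 with DESeq2 and 0 with limma-voom), with a median of 0.06. The nearest was Nog, which encodes the BMP antagonist noggin, with 8.86 ± 0.351 and 12.5 ± 1.28 CPM (log2 fold change 0.50, edgeR adjusted p = 0.0863).

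Among 11 genes of the Notch and Wnt pathways and Lingo1, 4 had an unadjusted p value under 0.05. DESeq2 called 2 and limma-voom 1, and edgeR's test called Rbpj. It encodes the DNA-binding partner of Notch receptors. It had 13.7, 13.8 and 14.1 CPM in wild-type and 27.0, 30.4 and 32.5 in knockout cortex, so the groups lay far apart. The log2 fold change was 1.11 (standard error 0.10, 95% interval 0.87 to 1.36, edgeR adjusted p = 0.00258), and it was a DEG. From the FPKM it did not pass (limma adjusted p 0.166 to 0.257).

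**Figure D4:**
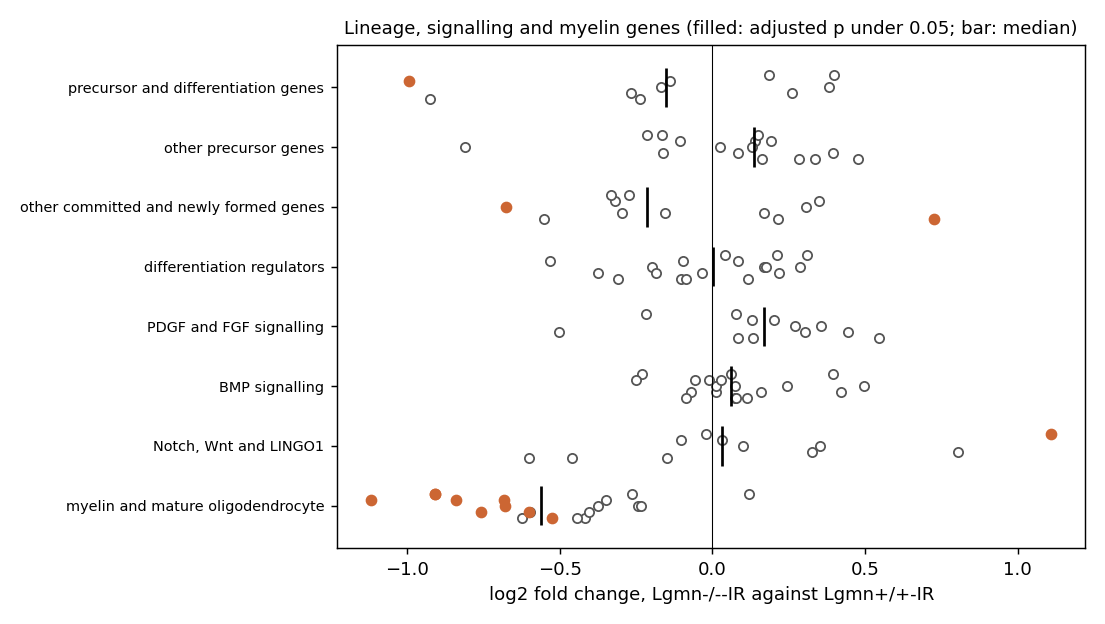
Log2 fold changes of single genes (x axis, Lgmn-/--IR against Lgmn+/+-IR) in the 10 genes and in lists of related genes (rows), spread vertically only for legibility. Filled points passed an adjusted p value of 0.05 in edgeR's test and vertical bars are the medians of the lists. The myelin list has 9 filled points, all below 0, with a median of −0.56, whereas the medians of the other lists lie between −0.21 and 0.17.

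Of 20 myelin and mature oligodendrocyte genes, which follow the newly formed stage, 9 fell and 0 rose in Lgmn-/--IR cortex by edgeR's test. Over all genes tested 1.68% were lower. Of the 20, 14 had an unadjusted p value under 0.05, against 18.6% of all genes tested. DESeq2 called 11, against 1298 of 21756 over all genes, and limma-voom 9, against 594 of 18345. Mobp, a myelin protein gene, fell from 1121 ± 117 to 516 ± 45.0 CPM (log2 fold change −1.12, edgeR adjusted p = 0.00330). Ugt8a, which encodes the enzyme for galactocerebroside, fell from 59.6 ± 1.598 to 31.8 ± 2.05 CPM (log2 fold change −0.91, edgeR adjusted p = 0.00327). Tspan2, a tetraspanin gene of the lineage, fell with a log2 fold change of −0.84 (edgeR adjusted p = 0.00468). With 1 library left out 3 to 8 of the 20 were called, 3 without Lgmn+/+-IR replicate 1, Lgmn+/+-IR replicate 2 or Lgmn-/--IR replicate 3 and 4 without Lgmn-/--IR replicate 1. Omitting the 2 libraries highest in striatal genes, which was tried only after the values were known, left 1 (Mobp).

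Markers of other tissue and cell types were set beside these values, and their part in the results was not tested unless a value is given. The summed level of 8 striatal genes ranged from 525 to 2337 CPM in wild-type and from 441 to 2066 in knockout cortex, and it was highest in Lgmn+/+-IR replicate 3 and Lgmn-/--IR replicate 1. None of these genes passed edgeR's, DESeq2's or limma-voom's test, and none had an unadjusted p value under 0.05. The nearest was Pde10a, a phosphodiesterase gene of striatal neurons (log2 fold change −0.83, edgeR adjusted p = 0.635, and a log2 fold change of 0.57 without Lgmn+/+-IR replicate 3). Without these 2 libraries Enpp6 had a log2 fold change of −0.92 (edgeR adjusted p = 0.126), and Neu4 one of −1.35 (edgeR adjusted p = 0.113). With the striatal sum as a covariate Enpp6 had −1.06 (edgeR adjusted p = 0.0132) and Neu4 −0.85 (edgeR adjusted p = 0.153). Both settings were added once the values had been seen.

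Erythroid genes were higher in Lgmn-/--IR, 5 of 5 by edgeR's test and 3 of 5 with limma-voom, with sums of 7.59 to 15.8 CPM in wild-type and 234 to 2273 in knockout cortex. The means were 3.37 and 544 CPM for Hba-a1, 3.11 and 301 for Hba-a2, 4.02 and 417 for Hbb-bs, and 1.32 and 134 for Hbb-bt, all hemoglobin genes (edgeR adjusted p = 0.00877, 0.0101, 0.0114 and 0.0172). Without Lgmn+/+-IR replicate 2 none of these 4 passed (edgeR adjusted p 0.0530 to 0.0927), and without replicate 1 or replicate 3 of Lgmn+/+-IR Hbb-bs (0.0519 and 0.0546) and Hbb-bt (0.0707 and 0.0773) did not, nor did Hba-a2 without replicate 3 (0.0519). The value of Enpp6 was −0.99 also when these genes were left out of the normalization. Of the cells that share a marker with precursors, 7 pericyte genes, which bear on Cspg4, summed to between 188 and 222 CPM in wild-type and between 157 and 229 in knockout cortex, and none passed edgeR's test (0 at an unadjusted p value under 0.05 and 0 with DESeq2 and limma-voom, smallest adjusted p 0.272 for Abcc9). The 8 genes of meningeal fibroblasts, which also express Pdgfra, summed to between 63.2 and 71.6 CPM in wild-type and between 80.5 and 85.3 in knockout cortex, and 1 of them (Slc6a13, log2 fold change 0.68, edgeR adjusted p = 0.0275) was higher, a call lost with any of the 6 libraries left out (adjusted p 0.0547 to 0.140). Of the fibroblast genes 2 had an unadjusted p value under 0.05, and DESeq2 and limma-voom called 1 each. None of the pericyte or fibroblast genes was at 0 in all libraries. Of 7 astrocyte genes, Aqp4, a water channel gene, was higher (log2 fold change 0.55, edgeR adjusted p = 0.0374), and the call held only without Lgmn-/--IR replicate 2 when libraries were left out (adjusted p otherwise 0.0899 to 0.129). Of the 7, 6 had a log2 fold change above 0 and 1 below, and 4 had an unadjusted p value under 0.05. DESeq2 called 2 of them and limma-voom 1.

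No gene of 10 proliferation genes passed edgeR's test (0 at an unadjusted p value under 0.05 and 0 with DESeq2 and limma-voom, smallest adjusted p 0.512 for Cenpf), and their summed level was low, between 13.3 and 15.8 CPM in wild-type and between 8.89 and 19.0 in knockout cortex. The lists of neurons, microglia, endothelial cells, choroid plexus and neuroblasts had 0 genes called by edgeR's test and by limma-voom. They had 0, 2, 2, 0 and 1 genes at an unadjusted p value under 0.05, and 0, 1, 2, 0 and 0 called by DESeq2. The smallest edgeR adjusted p values were 0.485 for Snap25, 0.0731 for Csf1r, 0.0613 for Slco1a4, 0.318 for Folr1 and 0.191 for Cd24a.

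**Figure D5:**
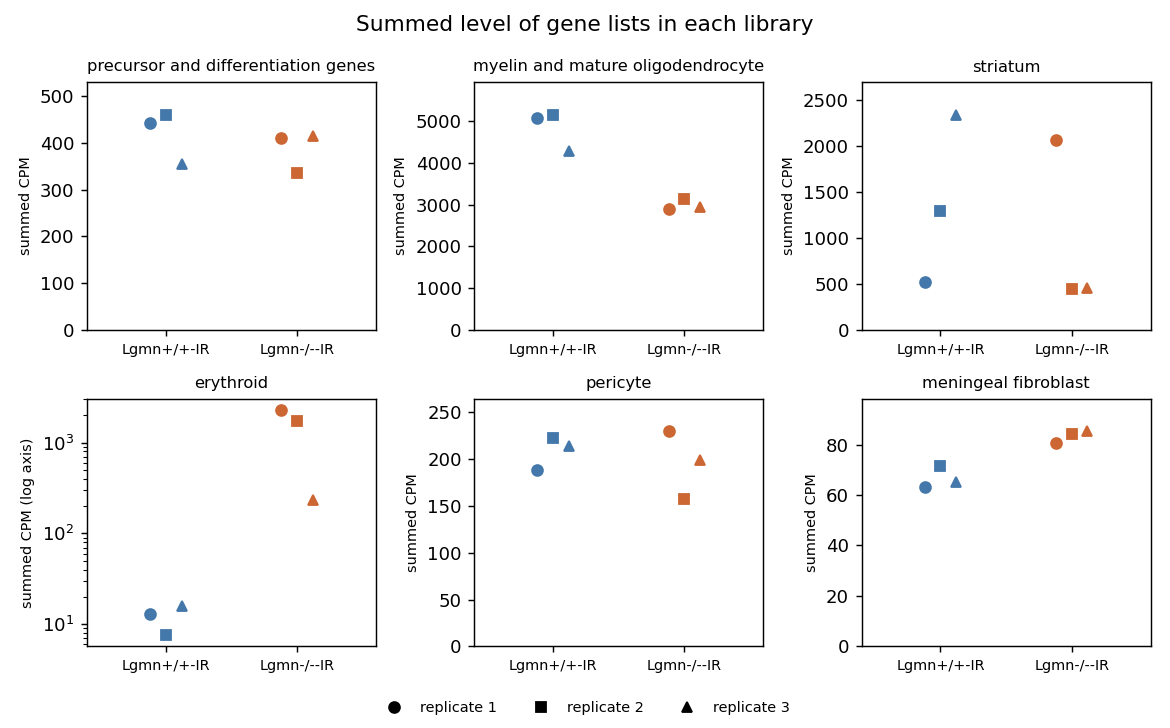
Summed CPM of gene lists in each library (points, with the replicate number as shape) by genotype; the erythroid panel has a log axis and the other axes start at 0. The myelin sums lie between 4287 and 5154 in wild-type and between 2895 and 3125 in knockout cortex, while the sums of the 10 genes overlap (355 to 461 and 336 to 414).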

How the data were processed

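Per the paper's methods, reads were filtered with Trimmomatic 0.36, mapped with HISAT2 and summarized with StringTie. The submitters' processing notes name GRCm38. The authors deposited raw counts per gene without normalization, and the FPKM deposited by the authors take transcript length and depth into account. The read counter and strand setting are not given in the sources used here. Groups follow the sample titles. Gene positions come from GENCODE release M21 (GRCm38), which held 51633 of the 51826 gene IDs.

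Counts were analysed in R 4.3.3 with edgeR 4.0.16 (TMM, filterByExpr by genotype, quasi-likelihood test, no covariate besides genotype, 18345 genes, Benjamini-Hochberg adjustment). The 95% intervals come from the F statistic. limma 3.58.1 and DESeq2 1.42.0 served as alternatives. The edgeR fit was run on counts simulated from its own estimates. That run checks the calculation and cannot show that the model suits these libraries. Within a genotype, any 2 libraries differed beyond sampling noise (chi-square statistic averaged over genes, 29.2 to 104), and each entered as a sample.

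The genes and lists were chosen with earlier results of these data known. Named genes are the 10 genes, Lgmn, the genes called in each list (at most 4, by p) or, where none was called, the one of smallest p. A gene that this rule names in the myelin list is not reported here. Intervals cover the spread between libraries, and without molecular identifiers, reads do not stand for independent molecules.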

Additional observations from a re-analysis of the deposited data

How the results depend on the processing

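The processing was varied in 17 ways chosen at the start, and in 2 chosen after seeing the data. The log2 fold change of Enpp6 was below 0 in all 19 (−1.21 to −0.82), and each of the other 9 genes kept its sign except Cspg4, at 0.080 with log2(FPKM + 1), with or without a filter, and 0.10 with log2(FPKM + 0.1). Pde10a, at −0.83, lay between −1.64 and 0.57 with 1 library left out. Of the 10 genes 1 was called and was lower. DESeq2 called 2, both lower, and the unfiltered FPKM, the replicate block and the fit without the 2 libraries highest in striatal genes each called 0. Leaving out 1 library called 0 to 1, with 0 without Lgmn+/+-IR replicate 2 or replicate 3. DEGs numbered 0, and 1 (Enpp6) with total counts only, log2(FPKM + 0.1) or the striatal covariate, and 0 to 1 with 1 library left out. Of the 88 related genes 3 were called, 8 with DESeq2, 1 with log2(FPKM + 1), 0 with unfiltered FPKM, 1 with the replicate block, 1 without the 2 striatal libraries and 1 to 2 with 1 library left out. Of the 20 myelin genes 9 were called, 3 with unfiltered FPKM, 4 with the replicate block, 1 without the 2 striatal libraries and 3 to 8 with 1 library left out. Of 73 markers of other cells, the 5 erythroid genes not included, 2 were called, 6 with DESeq2, 1 with total counts only, 1 without a filter on counts, 0 with unfiltered FPKM, with the replicate block and without the 2 striatal libraries, and 0 to 1 with 1 library left out. Over all genes 611 were called, 1298 with DESeq2, 404 without a filter, 406 with at least 10 counts in every library, 381 with unfiltered FPKM, 150 with the replicate block, 136 without the 2 striatal libraries and 223 to 500 with 1 library left out. Fewer libraries leave fewer degrees of freedom, and otherwise the cause was not tested.

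The replicate block is shown because both genotypes have replicates numbered 1 to 3. Same-numbered libraries did not deviate together (correlations of −0.25, −0.05 and −0.03), so the numbers were not taken as pairs. With the block Enpp6 had a log2 fold change of −0.9995 (edgeR adjusted p = 0.0861) and Neu4 −0.93 (edgeR adjusted p = 0.239). With 3 libraries a genotype, the 95% intervals of the 10 genes reached 0.29 to 0.65 on the log2 scale to either side, which limits the precision of each value.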

Other observations

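The genes around the 10 genes were looked at after the results were seen. Within 1 Mb of Enpp6, edgeR's quasi-likelihood test called 0 of 23 tested genes, and 4 had an unadjusted p value under 0.05. Within 1 Mb of Neu4 it called 1 of 20 (D2hgdh). Within 1 Mb of Olig1 it called 2 of 32 (Slc5a3 and Urb1), which also lie within 1 Mb of Olig2. At an unadjusted p value under 0.05 there were 5 genes around Neu4 and 7 around Olig1. Around Pdgfra, Cspg4, Sox10, Gpr17, Bmp4 and Bcas1, 0 genes were called. Genes under that p value numbered 4 of 11, 8 of 37, 8 of 60, 2 of 20, 4 of 18 and 1 of 9. Over all genes tested 3.33% were called and 18.6% had an unadjusted p value under 0.05. The counts called thus lie near the background, and the unadjusted counts of these small windows varied around it. Other tools were not applied to these windows.

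Of the 10 genes, Lgmn-/--IR replicate 2 had the lowest CPM in 5 and the highest in 0, and Lgmn+/+-IR replicate 3 the lowest in 4 and the highest in 0. Lgmn+/+-IR replicate 2 had the highest in 4.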
